A study of Mus musculus with 9 samples.

Results

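The genes described are 44 mouse genes induced by type I interferon: antiviral effectors, nucleic acid sensors, the ISG15 system and regulators of the response. They were chosen by symbol, leaving out the guanylate-binding and immunity-related GTPases, and were found through their Ensembl identifiers in a count table of 53801 genes. All 44 were in the table, and 43 of them were among the 12543 protein-coding genes with enough counts for a test. Mx2 was not, because the annotation lists it as a polymorphic pseudogene.

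Interferons alpha and beta bind the receptor IFNAR, whose kinases JAK1 and TYK2 activate STAT2. It joins IRF9 in a complex, ISGF3, that binds the interferon-stimulated response element (ISRE) in the promoters of antiviral genes, whose products detect, modify or block foreign nucleic acid and particles. Microglia and infiltrating monocytes both carry the receptor, and cells with a raised interferon signature are known among the myeloid cells of brain tumors.

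The libraries hold RNA of CD11b+ cells, sorted by flow cytometry from the brain hemisphere with the tumor, of male C57BL/6J mice aged 10 to 12 weeks when the study began. All mice carried GL261 glioma cells expressing luciferase and tdTomato, implanted in the right striatum. The series asks how an inhibitor of both arginases, alone or with a checkpoint antibody, alters the myeloid cells of the glioma. CTR mice (2 libraries) received saline, OAT-1746 mice (2 libraries) the oral arginase inhibitor OAT-1746 at 50 mg/kg from day 1, anti-PD-1 mice (2 libraries) antibody to PD-1 at 2.5 mg/kg between days 8 and 14, and COMB mice (3 libraries) both agents. The methods place collection at day 28 and a figure legend at day 21. The sort used CD11b alone, so microglia, monocytes, neutrophils and CD11b+ NK cells could all enter it. The methods call the libraries of a group biological replicates, and whether each came from 1 mouse is not stated. For anti-PD-1 replicate 2 the labels name an antibody to PD-2 as treatment, but its title and column put it with anti-PD-1, where it was grouped.

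Read pairs counted on genes numbered 17490386 and 17729568 in the CTR libraries, 17380045 and 16784406 in OAT-1746, 14356928 and 18796479 in anti-PD-1, and 13048075, 16144518 and 14806017 in COMB. Levels are given as CPM, counts scaled to a common library size after TMM normalization, and differences are log2 fold changes ± standard error from edgeR. A gene counts as called when its p, adjusted over all tested genes by the method of Benjamini and Hochberg, is under 0.05. The sorted population carried the marker it was sorted for: Itgam, which encodes CD11b, stood between 294 CPM (anti-PD-1 replicate 1) and 446 CPM (OAT-1746 replicate 2). Csf1r, the receptor that microglia and macrophages need, stood between 6298 and 11550 CPM (both extremes in single libraries of CTR and OAT-1746).

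OAT-1746 replicate 2 stood apart from the other 8 libraries. Its log2 CPM over all tested genes correlated with theirs at r = 0.911 to 0.956, whereas no pair among the others lay under 0.960 (across genes, which are not independent replicates). For 41 of the 43 tested members it was the lowest of the 9 libraries, against 31.7% of all tested genes. The level of a member in OAT-1746 replicate 1 was 1.30 to 11.4 times that in replicate 2, with a median of 3.98, while the median over all tested genes was 0.995. The edgeR counts and medians of the members are therefore given with and without this library in each comparison.

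Summed over the 44 members, the share of all counts was 0.941% (95% interval 0.937 to 0.946) and 1.06% (95% interval 1.05 to 1.06) in CTR. In OAT-1746 it was 1.03% (95% interval 1.02 to 1.03) in replicate 1 and 0.355% (95% interval 0.352 to 0.358) in replicate 2. The anti-PD-1 libraries gave 1.36% (95% interval 1.35 to 1.36) and 1.33% (95% interval 1.32 to 1.33). In COMB it was 0.829% (95% interval 0.824 to 0.834), 0.813% (95% interval 0.809 to 0.818) and 0.854% (95% interval 0.850 to 0.859). Intervals are exact Clopper-Pearson intervals and cover counting error only. The anti-PD-1 libraries were thus the highest, the COMB libraries lay under both CTR libraries, and 1 of the OAT-1746 libraries lay between the CTR libraries while the other was the lowest. The median member, as a log2 difference from the CTR mean, stood at -0.10 and 0.10 in CTR, 0.02 and -1.91 in OAT-1746, 0.39 and 0.50 in anti-PD-1, and -0.32, -0.38 and -0.29 in COMB. Over all tested genes the same median stayed between -0.04 and 0.03.

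**Figure D1:**
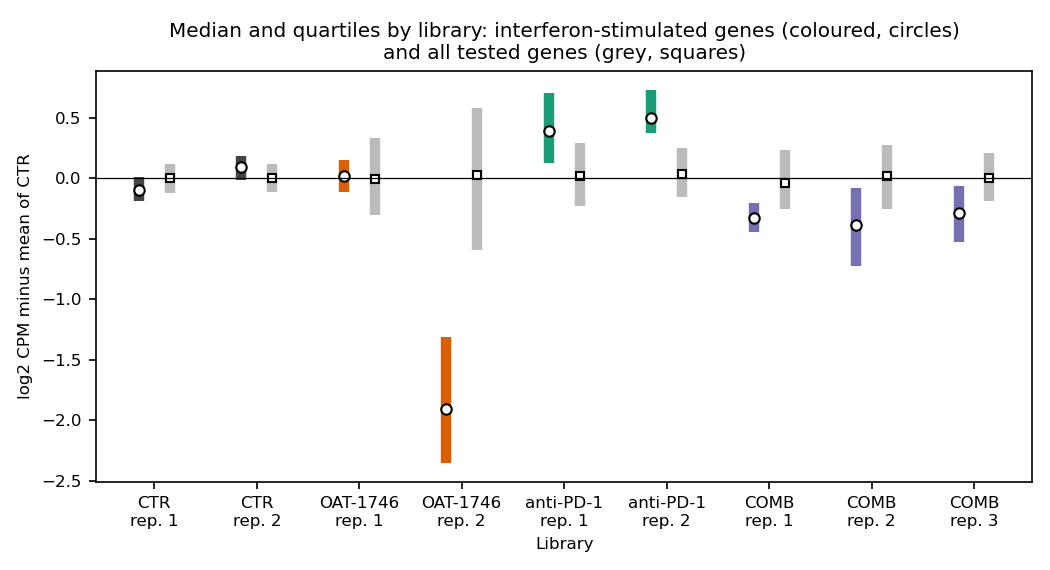
Log2 difference from the CTR mean in each of the 9 libraries, for the 43 tested members beside all tested genes. The member median was 0.39 and 0.50 in anti-PD-1, -0.29 to -0.38 in COMB and -1.91 in OAT-1746 replicate 2.

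Gene by gene, anti-PD-1 replicate 2 was above both CTR libraries for 43 of 43 members (36.7% of all tested genes) and anti-PD-1 replicate 1 for 33 (37.4%). Both anti-PD-1 libraries were above the other 7 for 31 members, against 3.49% of all tested genes. The COMB libraries were under both CTR libraries for 34, 28 and 27 members, where the shares of all tested genes were 40.7%, 34.99% and 32.8%. For 38 members the group means ran from anti-PD-1 through CTR to COMB, an order found in 19.1% of all tested genes.

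**Figure D2:**
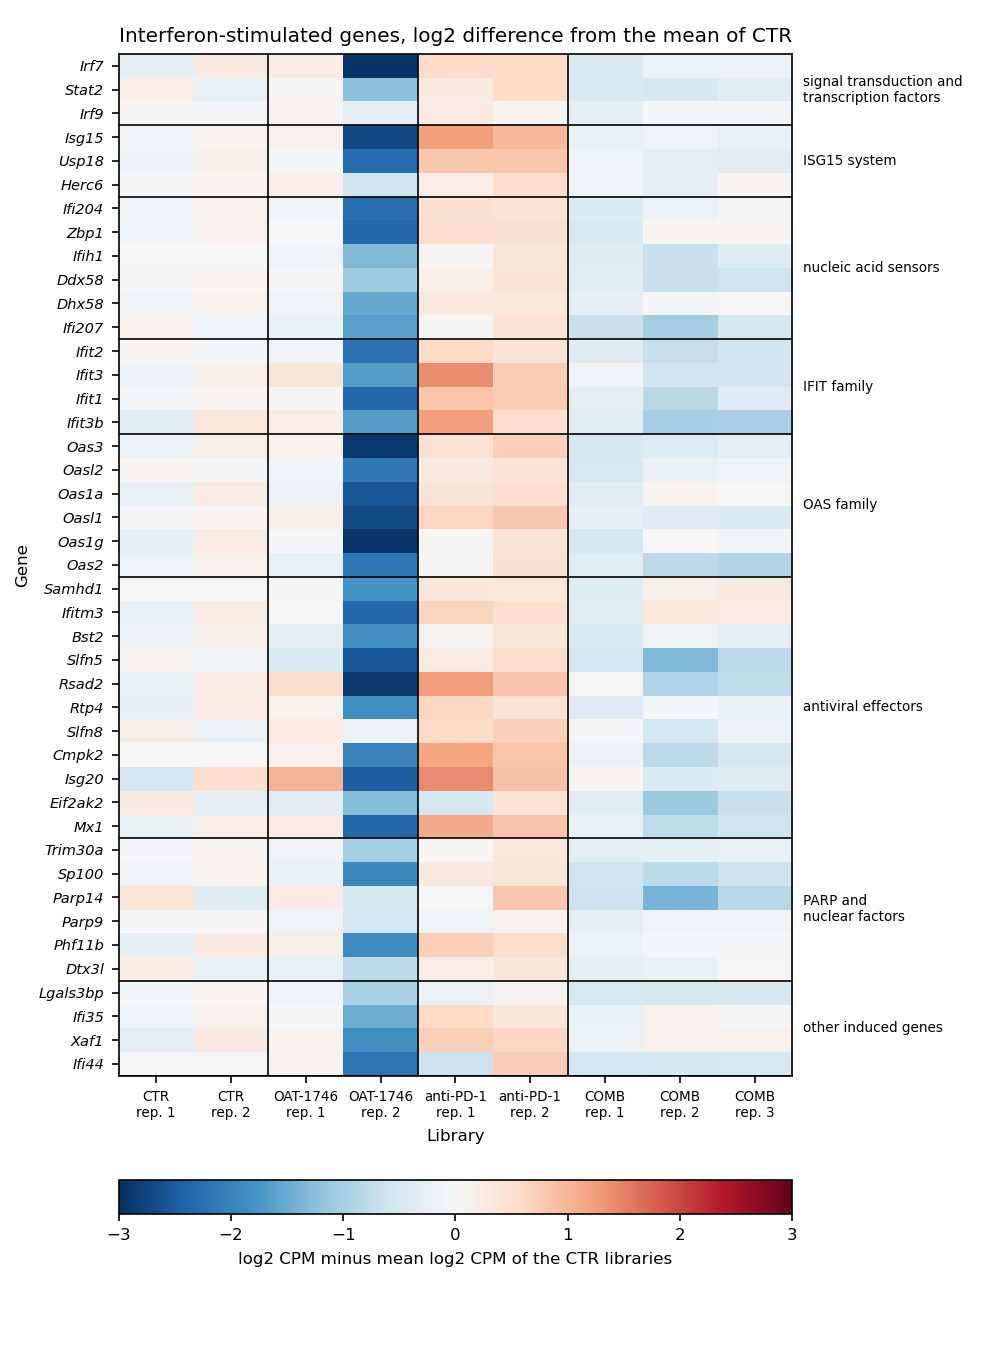
Log2 difference from the CTR mean for each tested member (by role class) in each of the 9 libraries. OAT-1746 replicate 2 is the lowest library for 41 of 43 members, and both anti-PD-1 libraries are above the other 7 for 31.

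Per length of exon, the members spanned a wide range of levels. Ifitm3 was the highest at 966 CPM per kilobase, averaged over the 9 libraries, followed by Lgals3bp (546), Isg15 (348), Bst2 (341) and Irf7 (196). Mx2 was the lowest at 1.05 CPM per kilobase, then Oas2 (4.86) and Herc6 (5.03). Several members sit side by side in the genome (GRCm38). Ifit2, Ifit3, Ifit3b and Ifit1 follow each other on the plus strand of chromosome 19 (chr19:34550694-34650009), and Oas2, Oas3, Oas1g and Oas1a on the minus strand of chromosome 5 (chr5:120730333-120907521). Cmpk2 and Rsad2 are transcribed away from each other on chromosome 12, and Parp9 and Dtx3l likewise on chromosome 16, where they overlap. Ifit3 and Ifit3b, Oas1a and Oas1g, and Ifi204 and Ifi207 are close paralogs, so read pairs that fit both copies were lost to the mapping quality filter and their levels are less certain.

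Promoter sequences were taken from RefSeq (GRCm38.p6), each from 250 bases before to 50 after a start site, because the members moved together between libraries. Of the 44 members, 34 had an entry in the promoter table supplied, and Mx1, Mx2, Oas2, Usp18, Dhx58, Rtp4, Zbp1, Parp14, Parp9 and Ifi204 had none. The letters of the ISRE, GAAANNGAAA on either strand, were found for 19 of 34 members (55.9%), and in 21 of their 41 promoters (51.2%) against 3.44% of 32851 promoters. The 30 matches, at 29 places because 2 overlapping promoters of Slfn8 share 1, lay between 222 bases before and 33 bases after the start. The middle positions in their order were -72 and -66, and 8 members held more than 1 match in a single promoter. The letters of the interferon-gamma activated site (GAS), TTCNNNGAA, which reads the same on both strands, were found for 8 members (23.5%) against 9.55% of genes, and 2 ISRE matches overlapped a GAS match. A match describes the letters in this window, and binding was not measured. Promoters are shown for 4 members with ISRE letters, from the ISG15, IFIT and OAS classes, with the matches in capitals. That of Isg15 (chr4:156200769-156201068, minus strand) holds 3 overlapping matches, at -78, -72 and -66. Ifit3 (chr19:34583279-34583578, plus strand) has matches at -156 and -122, and Ifit1 (chr19:34640639-34640938, plus strand) at -104 and -85. Oas3 (chr5:120777610-120777909, minus strand) has 1, at -75.
Isg15: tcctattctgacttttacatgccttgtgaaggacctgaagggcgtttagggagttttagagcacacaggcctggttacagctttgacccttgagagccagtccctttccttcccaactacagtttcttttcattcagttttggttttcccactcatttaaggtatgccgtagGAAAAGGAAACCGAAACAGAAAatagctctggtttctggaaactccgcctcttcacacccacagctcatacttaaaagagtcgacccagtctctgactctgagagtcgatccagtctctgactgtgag
Ifit3: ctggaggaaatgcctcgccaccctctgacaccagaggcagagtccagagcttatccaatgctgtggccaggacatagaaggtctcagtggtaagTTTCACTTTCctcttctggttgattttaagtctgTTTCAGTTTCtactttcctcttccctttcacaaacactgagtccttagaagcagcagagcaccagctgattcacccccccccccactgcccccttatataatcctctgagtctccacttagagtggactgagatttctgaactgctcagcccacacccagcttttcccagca
Ifit1: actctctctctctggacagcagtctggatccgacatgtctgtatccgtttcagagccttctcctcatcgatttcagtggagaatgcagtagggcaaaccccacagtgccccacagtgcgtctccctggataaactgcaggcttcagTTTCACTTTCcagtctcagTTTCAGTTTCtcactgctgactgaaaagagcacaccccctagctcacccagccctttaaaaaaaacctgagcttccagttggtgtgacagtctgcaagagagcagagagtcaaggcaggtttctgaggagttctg
Oas3: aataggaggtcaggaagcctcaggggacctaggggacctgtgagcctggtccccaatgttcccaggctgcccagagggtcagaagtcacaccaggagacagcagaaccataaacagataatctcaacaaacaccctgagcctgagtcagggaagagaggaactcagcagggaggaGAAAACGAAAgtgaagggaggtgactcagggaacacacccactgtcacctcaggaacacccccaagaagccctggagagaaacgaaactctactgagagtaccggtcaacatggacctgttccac

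Signal transduction and transcription. Irf7, the transcription factor that amplifies interferon production, stood at 626 and 917 CPM in CTR, 879 and 98.1 CPM in OAT-1746, 1129 and 1103 CPM in anti-PD-1, and 569, 675 and 671 CPM in COMB. Stat2, the ISGF3 subunit that carries the transactivation domain, stood at 189 and 146 CPM in CTR, 171 and 70.6 CPM in OAT-1746, 202 and 244 CPM in anti-PD-1, and 122, 119 and 133 CPM in COMB. In both genes the anti-PD-1 libraries were above all others and OAT-1746 replicate 2 was the lowest. Irf9, the DNA-binding subunit, varied least of the class, with group means from 129 CPM in COMB to 156 CPM in anti-PD-1.

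ISG15 system. Isg15, the ubiquitin-like modifier whose promoter is shown above, stood at 215 and 248 CPM in CTR, 253 and 35.2 CPM in OAT-1746, 548 and 454 CPM in anti-PD-1, and 200.2, 212 and 199 CPM in COMB. Its group means were 232 ± 23.6 CPM in CTR, 144 ± 154 CPM in OAT-1746 and 501 ± 66.99 CPM in anti-PD-1 (SD, n = 2 each), and 204 ± 7.04 CPM in COMB (SD, n = 3). Usp18, which removes ISG15 from proteins and dampens signalling at the receptor, stood at 112 and 138 CPM in CTR, 120.4 and 24.5 CPM in OAT-1746, 216 and 220.3 CPM in anti-PD-1, and 114, 103 and 98.2 CPM in COMB. The 3 COMB libraries of Isg15 lay under both CTR libraries, while those of Usp18 overlapped them. Herc6, the main ISG15 ligase of the mouse, had group means between 41.6 CPM (OAT-1746) and 59.4 CPM (anti-PD-1).

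Nucleic acid sensors. Ifi204, a DNA-binding protein of the PYHIN family, stood at 392 and 448 CPM in CTR, 397 and 87.9 CPM in OAT-1746, 571 and 557 CPM in anti-PD-1, and 316, 368 and 406 CPM in COMB. Zbp1, a sensor of Z-form nucleic acid that can start necroptosis, stood at 259 and 308 CPM in CTR, 284 and 55.5 CPM in OAT-1746, 398 and 391 CPM in anti-PD-1, and 206, 293 and 293 CPM in COMB. Both were highest in the anti-PD-1 libraries, and their COMB and CTR libraries overlapped. The RNA helicases Ddx58 (RIG-I) and Ifih1 (MDA5) and the PYHIN gene Ifi207 had COMB libraries under both CTR libraries. Dhx58 (LGP2) had not, with means of 122 CPM in COMB and 132 CPM in CTR.

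IFIT family. Ifit2, which like its relatives binds RNA and restrains translation, stood at 247 and 229.7 CPM in CTR, 217 and 51.7 CPM in OAT-1746, 358 and 309.7 CPM in anti-PD-1, and 184, 148 and 161 CPM in COMB. Ifit3 stood at 128 and 162 CPM in CTR, 185 and 44.7 CPM in OAT-1746, 376 and 240.5 CPM in anti-PD-1, and 133, 96.7 and 96.5 CPM in COMB. Its copy Ifit3b stood at 27.9 and 43.9 CPM in CTR, 39.9 and 10.9 CPM in OAT-1746, 82.6 and 49.5 CPM in anti-PD-1, and 27.96, 17.4 and 17.8 CPM in COMB. In all 3 genes both anti-PD-1 libraries were above the other 7. The COMB libraries of Ifit2 lay under both CTR libraries, and those of Ifit3 and Ifit3b overlapped CTR through COMB replicate 1. Ifit1 had means of 59.4 CPM in CTR, 103 CPM in anti-PD-1 and 42.3 CPM in COMB.

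OAS family. The OAS enzymes make oligoadenylates that activate RNase L. Oas3 stood at 272 and 347 CPM in CTR, 336 and 41.9 CPM in OAT-1746, 415 and 508 CPM in anti-PD-1, and 220.1, 233 and 252 CPM in COMB. The OAS-like gene Oasl2 stood at 309 and 285 CPM in CTR, 272 and 67.3 CPM in OAT-1746, 361 and 393 CPM in anti-PD-1, and 218, 260.2 and 276 CPM in COMB. Both had anti-PD-1 libraries above the other 7 and COMB libraries under both CTR libraries. Oas1a stood at 165 and 223 CPM in CTR, 169 and 32.1 CPM in OAT-1746, 252 and 271 CPM in anti-PD-1, and 153, 206 and 194 CPM in COMB. Its paralog Oas1g stood at 35.5 and 49.9 CPM in CTR, 40.3 and 5.49 CPM in OAT-1746, 42.9 and 55.2 CPM in anti-PD-1, and 30.3, 41.9 and 39.8 CPM in COMB. Oas2, the least abundant of the family per length, stood at 24.3 and 28.8 CPM in CTR, 22.5 and 5.66 CPM in OAT-1746, 27.03 and 36.1 CPM in anti-PD-1, and 20.8, 15.3 and 14.2 CPM in COMB. In these 3 genes OAT-1746 replicate 2 was the lowest library, and anti-PD-1 was above all others only for Oas1a. Oasl1 had means of 124 CPM in CTR, 206 CPM in anti-PD-1 and 97.4 CPM in COMB.

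Antiviral effectors. Samhd1, which hydrolyzes deoxynucleotides, stood at 931 and 941 CPM in CTR, 954 and 269 CPM in OAT-1746, 1176 and 1163 CPM in anti-PD-1, and 731, 1073 and 1135 CPM in COMB. Ifitm3, a membrane protein that blocks fusion of virus particles in endosomes, stood at 532 and 729 CPM in CTR, 630.2 and 121 CPM in OAT-1746, 997 and 878 CPM in anti-PD-1, and 493, 772 and 741 CPM in COMB. Both had COMB libraries on either side of the CTR libraries. Rsad2 (viperin), an enzyme that makes a chain-terminating nucleotide, stood at 165 and 228 CPM in CTR, 271 and 26.1 CPM in OAT-1746, 462 and 352 CPM in anti-PD-1, and 196, 105 and 114 CPM in COMB. Mx1, a dynamin-like GTPase that C57BL/6 mice carry in a defective form, stood at 24.9 and 32.9 CPM in CTR, 33.99 and 5.49 CPM in OAT-1746, 63.5 and 51.6 CPM in anti-PD-1, and 25.1, 16.7 and 18.9 CPM in COMB. The exonuclease Isg20 stood at 28.4 and 58.99 CPM in CTR, 83.2 and 7.27 CPM in OAT-1746, 109 and 75.4 CPM in anti-PD-1, and 42.6, 30.8 and 31.7 CPM in COMB. Rsad2 and Mx1 were highest in both anti-PD-1 libraries, whereas OAT-1746 replicate 1 of Isg20 lay between its anti-PD-1 libraries. In all 3 genes the COMB libraries overlapped those of CTR. The Schlafen gene Slfn5 stood at 324 and 290.1 CPM in CTR, 231 and 52.4 CPM in OAT-1746, 362 and 442 CPM in anti-PD-1, and 215, 122 and 179 CPM in COMB. Its relative Slfn8 stood at 104 and 81.9 CPM in CTR, 110.2 and 81.9 CPM in OAT-1746, 138 and 150.4 CPM in anti-PD-1, and 90.4, 64.3 and 82.01 CPM in COMB. Slfn5 was lower in every COMB library than in CTR, and Slfn8 was the 1 tested member for which OAT-1746 replicate 2 did not lie under both CTR libraries.

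Bst2 (tetherin), Rtp4, Cmpk2, Eif2ak2 (the kinase PKR) and Mx2 complete that class. Their means in CTR ran from 4.93 CPM (Mx2) to 352 CPM (Bst2). Cmpk2 had means of 64.6 CPM in CTR, 132 CPM in anti-PD-1 and 47.0 CPM in COMB. Mx2 stood at 4.68 and 5.18 CPM in CTR, 3.72 and 1.32 CPM in OAT-1746, 5.43 and 6.76 CPM in anti-PD-1, and 3.63, 1.32 and 1.98 CPM in COMB. In a fit of all 13705 genes with enough counts, whatever their type, its COMB against anti-PD-1 difference was -1.37 ± 0.49 (adjusted p = 0.715).

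PARP and nuclear factors. Trim30a, a TRIM protein that restrains Toll-like receptor signalling, stood at 329.5 and 354 CPM in CTR, 317 and 166 CPM in OAT-1746, 356 and 427 CPM in anti-PD-1, and 277, 285 and 292 CPM in COMB. Sp100, a component of PML nuclear bodies, stood at 266 and 306 CPM in CTR, 249 and 74.6 CPM in OAT-1746, 342 and 369.5 CPM in anti-PD-1, and 189.7, 165 and 185 CPM in COMB. Both lay under CTR in all 3 COMB libraries. The ADP-ribosyltransferase Parp14 stood at 242 and 147 CPM in CTR, 223 and 135 CPM in OAT-1746, 189.6 and 333 CPM in anti-PD-1, and 122, 71.7 and 107 CPM in COMB. Parp9, which acts with Dtx3l, stood at 159.6 and 165 CPM in CTR, 148 and 114 CPM in OAT-1746, 150.3 and 174 CPM in anti-PD-1, and 133, 149.9 and 155 CPM in COMB. Parp14 was lower in each COMB library than in any other library, and Parp9 varied little outside OAT-1746 replicate 2. Phf11b and Dtx3l had higher means in anti-PD-1 (202 and 169 CPM) than in CTR (133 and 143 CPM).

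Other induced genes. Lgals3bp, a secreted glycoprotein that binds galectins, stood at 1762 and 1932 CPM in CTR, 1739.5 and 948 CPM in OAT-1746, 1644 and 1974 CPM in anti-PD-1, and 1346, 1329 and 1319.5 CPM in COMB. Ifi35 stood at 94.3 and 115 CPM in CTR, 99.1 and 36.8 CPM in OAT-1746, 157 and 133 CPM in anti-PD-1, and 90.3, 111 and 99.2 CPM in COMB. Xaf1, a partner of the apoptosis inhibitor XIAP, stood at 57.5 and 83.9 CPM in CTR, 74.6 and 19.4 CPM in OAT-1746, 115 and 107 CPM in anti-PD-1, and 61.9, 75.4 and 76.1 CPM in COMB. Lgals3bp was lower in all 3 COMB libraries than in both CTR and both anti-PD-1 libraries, while Ifi35 and Xaf1 had COMB and CTR libraries that overlapped. Ifi44 had anti-PD-1 libraries on either side of CTR, with a mean of 45.8 ± 28.9 CPM (SD, n = 2).

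**Figure D3:**
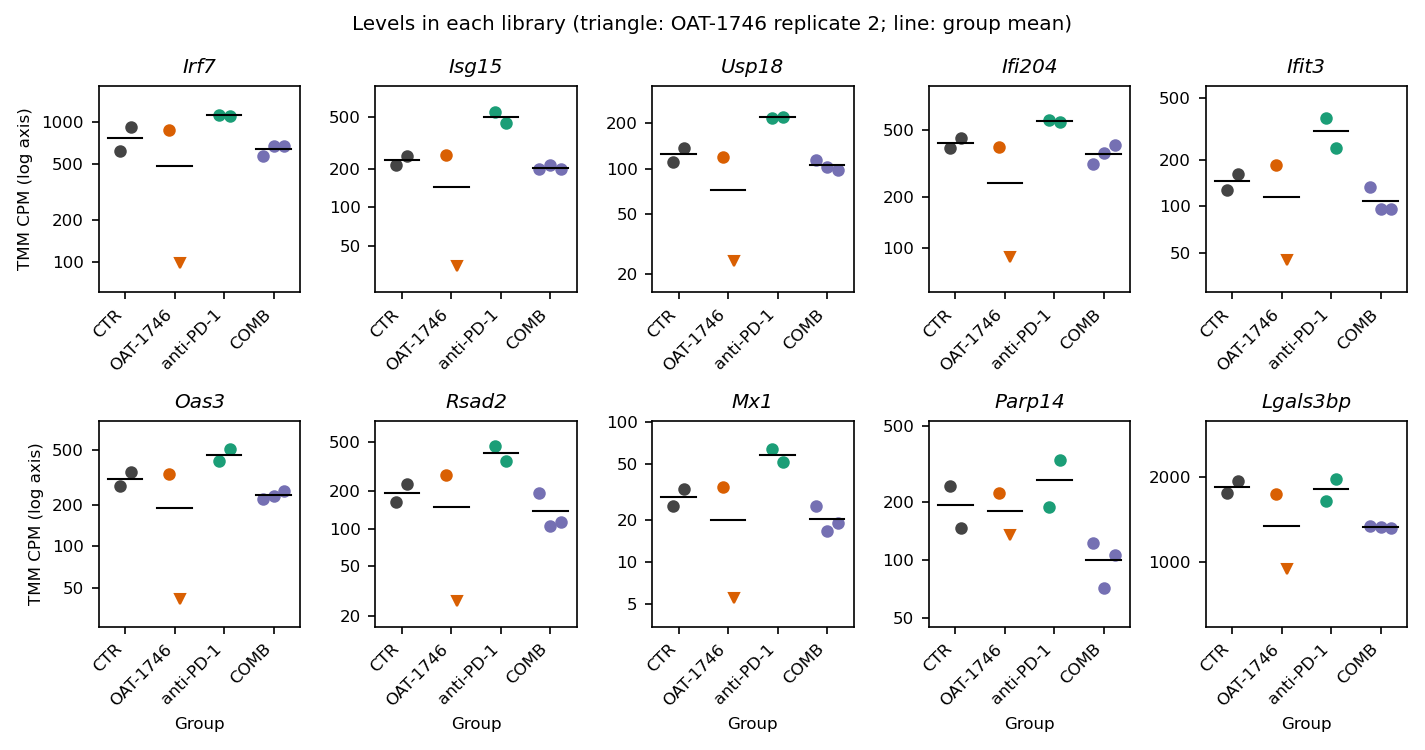
TMM-normalized CPM of 10 members in each of the 9 libraries by group, with the group mean. The anti-PD-1 libraries of Isg15, Usp18, Ifit3, Rsad2 and Mx1 stand above the other 7 libraries, and OAT-1746 replicate 2 is the lowest library for these 5.

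In anti-PD-1 against CTR, which asks what the antibody alone does, 41 of 43 members had a higher mean and 2 (Lgals3bp and Parp9) a lower one, with a median log2 fold change of 0.43 against 0.02 for all tested genes. Isg15 had the largest difference at 1.11 ± 0.65 (adjusted p = 0.966), then Ifit3 at 1.09 ± 0.53 (adjusted p = 0.951). Isg20 followed at 1.08 ± 0.81 (adjusted p = 0.966). At the other end, Lgals3bp stood at -0.03 ± 0.26 (adjusted p = 0.996). The classes with the largest medians were the IFIT family (0.84) and the ISG15 system (0.81), and the sensors (0.30) and the PARP and nuclear factors (0.28) had the smallest. Both anti-PD-1 libraries lay above both CTR libraries for 33 members, which held for 20.6% of all tested genes. edgeR called 0 members and 0% of all tested genes, and DESeq2 called 0 members and 0.112% of all tested genes. At an unadjusted p under 0.05 there was 1 higher member, Slfn8 (0.63 ± 0.22), against 3.17% of all tested genes. Without OAT-1746 replicate 2, which belongs to neither group but shares the filter, scaling and spread estimate, 23 members were higher at an unadjusted p under 0.05, against 4.73% of all tested genes. The median was then 0.42, edgeR still called 0 members and the smallest adjusted p was 0.209. Without anti-PD-1 replicate 2, whose label names another target, 38 members were higher and 5 lower, with a median of 0.37.

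In COMB against anti-PD-1, which asks what OAT-1746 adds to the antibody, all 43 members had a lower mean in COMB, with a median of -0.72 against -0.01 for all tested genes. The differences ran from -1.65 to -0.16. Ifit3b stood at -1.65 ± 0.48 (adjusted p = 0.567), Rsad2 at -1.56 ± 0.70 (adjusted p = 0.698) and Mx1 at -1.51 ± 0.55 (adjusted p = 0.612). The IFIT family had the lowest median (-1.39), followed by the ISG15 system (-1.05), and the smallest difference of all belonged to Parp9 at -0.16 ± 0.16. All 3 COMB libraries were under both anti-PD-1 libraries for 40 members, which held for 16.4% of all tested genes. The exceptions were Eif2ak2, Ifi44 and Parp9, named after their values were seen. edgeR called 0 members and 0% of all tested genes. An unadjusted p under 0.05 was reached by 14 members, all lower, against 5.23% of all tested genes. DESeq2 called 1 member, Parp14 (edgeR -1.38 ± 0.34, DESeq2 adjusted p = 0.0413), against 0.319% of all tested genes in that direction.

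Leaving out an OAT-1746 library changed these calls, although neither group compared contains it. Without OAT-1746 replicate 2, edgeR called 10 members, all lower in COMB, against 0.319% of 12842 tested genes. These were Mx1, Cmpk2, Sp100, Usp18, Oas3, Ifit1, Isg15, Oasl1, Ifit2 and Ifit3, named after their values were seen. Their log2 fold changes then ran from -1.48 to -0.95, with adjusted p from 0.0292 to 0.0457. Isg15 fell by 1.27 ± 0.14 in that fit (adjusted p = 0.0292), with all 3 COMB libraries under both anti-PD-1 libraries. At an unadjusted p under 0.05 there were 36 lower members, against 6.49% of the genes tested. The median of -0.70 differed little from that with all libraries. Without OAT-1746 replicate 1 instead, 11 members were called, against 0.405% of the genes tested: the same 10 and Rsad2. With neither OAT-1746 library in the fit, a setting chosen after seeing the data, the same 10 were called, against 0.325% of the genes tested. In a fit of the COMB and anti-PD-1 libraries alone, which also holds no OAT-1746 library, edgeR called 0 members and 0.0166% of the genes tested. There the median was -0.71, and 36 members were lower at an unadjusted p under 0.05, against 6.82% of the genes tested. Without anti-PD-1 replicate 2, 42 of 43 members were lower in COMB with a median of -0.69, 6 of them at an unadjusted p under 0.05 (2.69% of the genes tested), and edgeR called 0 members and 0% of the genes tested.

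**Figure D4:**
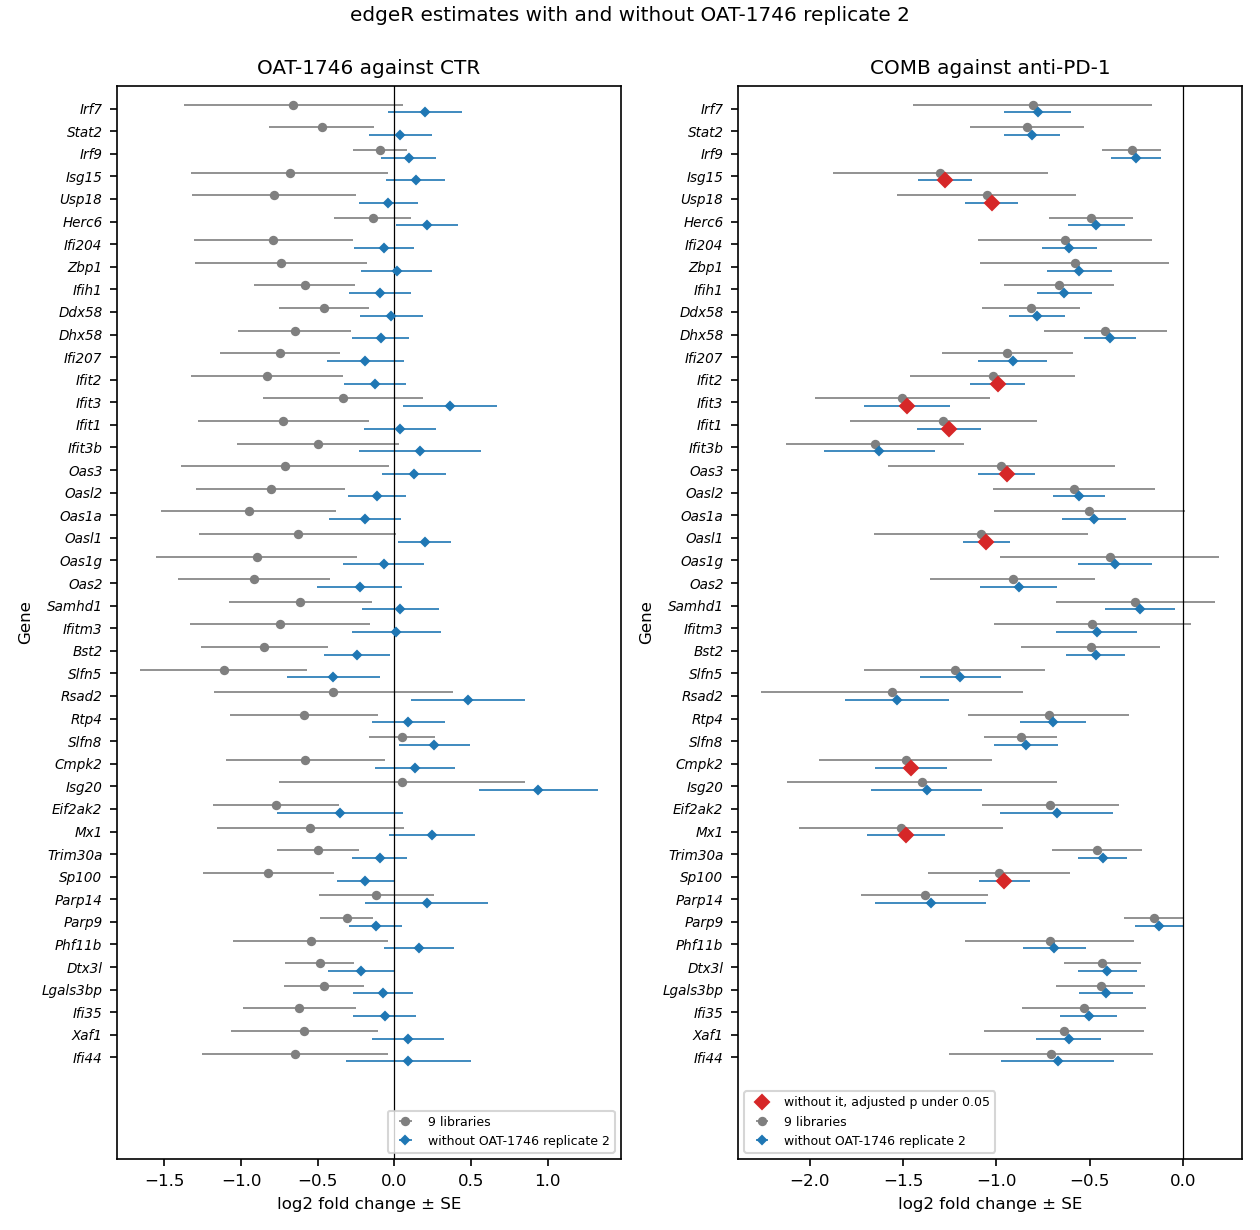
Log2 fold change ± standard error of the 43 tested members in OAT-1746 against CTR and COMB against anti-PD-1, with 9 libraries and without OAT-1746 replicate 2. The median moves from -0.62 to 0.01 in the former and from -0.72 to -0.70 in the latter, where 10 members are then called.

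In COMB against CTR, which asks what both agents do together, 40 members had a lower mean and 3 (Ifitm3, Samhd1 and Xaf1) a higher one, with a median of -0.29 against 0.00 for all tested genes. Parp14 stood lowest at -0.96 ± 0.34 (adjusted p = 0.745), then Slfn5 at -0.83 ± 0.49 (adjusted p = 0.783). Ifit3b followed at -0.77 ± 0.48 (adjusted p = 0.785). Ifitm3 was the highest at 0.09 ± 0.53. The members of the IFIT family, with a median of -0.51, lay lowest as a class. All 3 COMB libraries were under both CTR libraries for 20 members, against 15.8% of all tested genes. edgeR called 0 members and 0% of all tested genes, and DESeq2 called 0 members and 0.279% of all tested genes. Parp14 alone had an unadjusted p under 0.05, against 3.36% of all tested genes on the lower side. Without OAT-1746 replicate 2, 15 members were lower at an unadjusted p under 0.05 (4.18% of the genes tested), the median was -0.26 and 0 were called.

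In OAT-1746 against CTR, which asks what the inhibitor alone does, 41 members had a lower mean and 2 (Isg20 and Slfn8) a higher one, with a median of -0.62 against 0.01 for all tested genes. Slfn5 stood lowest at -1.11 ± 0.55 (adjusted p = 0.187), followed by Oas1a at -0.95 ± 0.57 (adjusted p = 0.267). Oas2 was next at -0.91 ± 0.50 (adjusted p = 0.225), and Isg20 stood at 0.05 ± 0.80, where the standard error reflects libraries of 83.2 and 7.27 CPM. Both OAT-1746 libraries lay under both CTR libraries for 12 of 43 members, against 32.1% of all tested genes. edgeR called 0 members and 0% of all tested genes, and DESeq2 called 0 members and 16% of all tested genes. No member had an unadjusted p under 0.05 (16.2% of all tested genes on the lower side). The result rested on OAT-1746 replicate 2: without it the median was 0.01, with 23 members higher, 20 lower and 0 called, and Isg20 alone had an unadjusted p under 0.05, on the higher side, against 8.3% of the genes tested. Without OAT-1746 replicate 1, the median was -1.94 and 38 members were called lower, against 17% of the genes tested. In each of these fits the lone OAT-1746 library is assumed to vary like the other groups.

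In COMB against OAT-1746, which asks what the antibody adds to the inhibitor, 34 members had a higher mean and 9 a lower one, with a median of 0.25 against 0.00. Oas1a stood highest at 0.88 ± 0.53 (adjusted p = 0.257), then Ifitm3 at 0.83 ± 0.55 (adjusted p = 0.294). Oas1g was next at 0.71 ± 0.61 (adjusted p = 0.423). Parp14 stood lowest at -0.84 ± 0.34 (adjusted p = 0.108). edgeR called 0 members, although it called 15.8% of all tested genes, and DESeq2 called 0 members and 24.4% of all tested genes. The edgeR share ran from 0.04% to 31.4% when single libraries were left out, and was 0.246% with the compared groups alone. Parp14 alone had an unadjusted p under 0.05, against 18.8% of all tested genes on the lower side. This comparison also turned on a single library. Without OAT-1746 replicate 2, the median was -0.34, 37 members were lower, 13 of them at an unadjusted p under 0.05 (9.42% of the genes tested), and 0 were called. Without OAT-1746 replicate 1, 33 members were called higher, against 18.1% of the genes tested, with a median of 1.66.

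The interaction asks whether OAT-1746 acts differently with and without the antibody, as the COMB against anti-PD-1 difference minus the OAT-1746 against CTR difference. With all 9 libraries, 27 members were negative and 16 positive, with a median of -0.15 against -0.02. Isg20 stood lowest at -1.45 ± 1.08 (adjusted p = 0.411), then Parp14 at -1.27 ± 0.51 (adjusted p = 0.163). Oas1g stood highest at 0.50 ± 0.88 (adjusted p = 0.741). edgeR called 0 members, against 0.359% of all tested genes, and DESeq2 called 0 members and 8.18% of all tested genes. Slfn8 and Parp14 had a negative value with an unadjusted p under 0.05, against 14.4% of all tested genes. Without OAT-1746 replicate 2, all 43 members were negative with a median of -0.76, and 23 had an unadjusted p under 0.05 (9.22% of the genes tested). edgeR then called 0 members, and the smallest adjusted p was 0.0631. Without OAT-1746 replicate 1, the median was 1.16 and 23 members were called positive, against 12.7% of the genes tested. The direction of the interaction therefore depends on which OAT-1746 library is kept. The comparisons share libraries, CTR in 3 of those between groups and COMB in 3, so their values are not independent.

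The genes upstream of the members were measured from lists of the same pathway. Type I interferon genes were near the limit of detection. Of 18 in the table, 15 had 0 counts in every library, Ifnb1 reached at most 0.412 CPM, and 0 had enough counts for a test. Ifng, the type II interferon, lay between 0.0572 and 0.836 CPM, and Ifnl2 and Ifnl3 had 0 counts. Ifng rose in COMB against OAT-1746 (3.33 ± 0.91, adjusted p = 0.0425), from a level of few counts, and DESeq2 gave it no adjusted p there. Of 6 receptor genes, of which Ifngr1 was the most abundant, edgeR called 0 in any comparison. DESeq2 called Ifnar1 lower in OAT-1746 against CTR (edgeR -0.63 ± 0.18, DESeq2 adjusted p = 0.0286), where it called 16% of all tested genes. It called Ifnlr1 lower in COMB against CTR (edgeR -2.83 ± 0.54, DESeq2 adjusted p = 0.0272), where it called 0.279% of all tested genes. At an unadjusted p under 0.05 the receptor list had at most 2 genes in a direction of any comparison.

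Among 12 genes of JAK-STAT signalling and its inhibitors, with Socs3 the most abundant, edgeR called 1, Pias1, which fell by 0.63 ± 0.16 in COMB against OAT-1746 (adjusted p = 0.0362). There DESeq2 also called Socs1 higher (adjusted p = 0.00704). In OAT-1746 against CTR, where DESeq2 called 16% of all tested genes, it called Pias1 higher (adjusted p = 0.0482) and Ptpn6 lower (adjusted p = 0.0495). Of 7 interferon regulatory factors outside the members, with Irf8 the most abundant, edgeR called Irf4, which fell by 1.36 ± 0.33 in COMB against OAT-1746 (adjusted p = 0.0332). Of 17 genes of nucleic acid sensing, 16 were tested and Trex1 had 0 counts, with Unc93b1 the most abundant. In COMB against OAT-1746 edgeR called 15.8% of all tested genes and DESeq2 24.4%. There edgeR called 3 of the 16 sensing genes lower, Ticam1 (-0.99 ± 0.13), Tlr3 (-0.66 ± 0.19) and Tlr9 (-0.54 ± 0.15). DESeq2 also called Tlr7 lower and Myd88 and Ikbke higher. Ticam1, the adaptor of TLR3, was also called in the interaction (-1.22 ± 0.20, adjusted p = 0.0495), and DESeq2 called it higher in OAT-1746 against CTR (adjusted p = 0.000815).

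A further list of 59 interferon-stimulated genes outside the members had 58 in the table (Mnda was not found by symbol) and 57 tested, with Ly6e the most abundant. Some of its genes also stand in the lists of signalling and sensing. Its summed level was 13779 and 14681 CPM in CTR, 13605 and 5597 CPM in OAT-1746, 15609 and 17728 CPM in anti-PD-1, and 10963, 14916 and 14729.9 CPM in COMB. In anti-PD-1 against CTR its median was 0.30, with 51 genes higher and 6 lower. The median was -0.49 in COMB against anti-PD-1 (8 higher, 49 lower) and -0.20 in COMB against CTR (16 higher, 41 lower). It was -0.53 in OAT-1746 against CTR (4 higher, 53 lower), 0.34 in COMB against OAT-1746 (44 higher, 13 lower) and 0.05 in the interaction (32 higher, 25 lower). These last 3 medians, in a refit without OAT-1746 replicate 2 chosen after seeing the data, were 0.01, -0.23 and -0.49, and edgeR called 0 of the 57 in each. In COMB against anti-PD-1 that refit gave a median of -0.46 and 36 genes lower at an unadjusted p under 0.05, with 2 called lower, against 0.319% of the genes tested. edgeR called Psmb8 higher (1.31 ± 0.36, adjusted p = 0.0430) and Trim34a lower (-0.50 ± 0.14, adjusted p = 0.0429) in COMB against OAT-1746. There DESeq2 also called Ifi27, Ifitm1, Psmb9, Psmb10 and Tap1 higher. In COMB against anti-PD-1 DESeq2 called Trim30d lower (adjusted p = 0.0336), where edgeR called 0 of the 57 and 13 were lower at an unadjusted p under 0.05.

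The edgeR calls among these pathway genes depended on the OAT-1746 libraries and the model, in refits chosen after seeing the data. In COMB against OAT-1746, where 15.8% of all tested genes were called with all libraries, they numbered 8 (Ifng, Pias1, Irf4, Ticam1, Tlr3, Tlr9, Psmb8 and Trim34a). Of these, 0 were called without OAT-1746 replicate 2, where edgeR called 27 genes in all, and 5 without OAT-1746 replicate 1, where it called 4035. With the replicate number as a block, 0 were called, and 2 of all tested genes. All 8 had the same sign in each of these fits. Ticam1 in the interaction was called without OAT-1746 replicate 1 (adjusted p = 0.00932), but not without replicate 2 (adjusted p = 0.114) or with the block (adjusted p = 0.399).

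Cell type markers varied between the same libraries. In a bulk library, fewer cells of a type and less RNA per cell cannot be told apart. The 10 microglia markers summed to 13008 and 20703 CPM in CTR, 27238 and 34169 CPM in OAT-1746, 19424 and 15779.6 CPM in anti-PD-1, and 23801, 17839 and 16734 CPM in COMB. The 10 markers of monocytes and macrophages, led by Tgfbi, summed to 13651 and 11715 CPM in CTR, 8621 and 2185 CPM in OAT-1746, 11043 and 13942 CPM in anti-PD-1, and 9619, 11649.6 and 12331 CPM in COMB. OAT-1746 replicate 2, the library with the lowest members, thus had the highest microglia sum and the lowest monocyte and macrophage sum, with S100a4 at 0. Ms4a3 was at 0 in 7 libraries. In OAT-1746 against CTR, 10 of 10 microglia markers were higher and 8 of the 9 tested monocyte and macrophage markers lower, and edgeR called 0 of either. At an unadjusted p under 0.05 these were 10 and 6, and DESeq2 called 8 and 4. Of all tested genes, 16.1% were higher and 16.2% lower at that threshold, and DESeq2 called 16%. In COMB against OAT-1746, 10 microglia markers were lower, 9 at an unadjusted p under 0.05, with 2 called by edgeR and 5 by DESeq2. There 7 of the 9 monocyte and macrophage markers were higher, 3 at an unadjusted p under 0.05, with 1 called by edgeR and 3 by DESeq2. Of all tested genes, 18.3% were higher and 18.8% lower at that threshold, with 15.8% called by edgeR and 24.4% by DESeq2. In COMB against anti-PD-1, 8 of the 9 monocyte and macrophage markers were lower (median -0.40), and in COMB against CTR 5 were lower (median -0.45). With all libraries edgeR and DESeq2 called none in either, and 0 had an unadjusted p under 0.05. Without OAT-1746 replicate 2, 3 of the 9 were lower at that threshold in each, against 6.49% and 4.18% of the genes tested. In the refit without OAT-1746 replicate 2, also chosen after seeing the data, edgeR called 0 markers of either list in any comparison. In OAT-1746 against CTR 10 microglia markers were then higher, 6 at an unadjusted p under 0.05, and 7 monocyte and macrophage markers lower, 4 at that threshold. The medians in COMB against OAT-1746 were then -0.55 and 0.10.

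The 13 NK cell markers, led by Klrk1, summed to 79.3 and 84.7 CPM in CTR, 113 and 27.5 CPM in OAT-1746, 342 and 206 CPM in anti-PD-1, and 88.04, 175 and 187 CPM in COMB. Both anti-PD-1 libraries were the highest and OAT-1746 replicate 2 the lowest, as for most members. Klrc2 was at 0 in both CTR libraries and Xcl1 in OAT-1746 replicate 2. In anti-PD-1 against CTR all 13 were higher, 11 at an unadjusted p under 0.05, with 0 called by edgeR and 5 by DESeq2. Of all tested genes, 3.17% were higher at that threshold there, and DESeq2 called 0.112%. In COMB against anti-PD-1 all 13 were lower, 3 at an unadjusted p under 0.05 (5.23% of all tested genes). There edgeR called 0 and DESeq2 1, against 0.375% of all tested genes called by DESeq2. Without OAT-1746 replicate 2 all 13 were again lower there (median -1.08), 7 at that threshold, against 6.49% of the genes tested. With all libraries, 12 were higher in COMB against CTR, 6 at an unadjusted p under 0.05 (3.23% of all tested genes). There edgeR called 0 and DESeq2 1, against 0.279% of all tested genes called by DESeq2. In COMB against OAT-1746 12 were also higher, 4 at that threshold (18.3% of all tested genes), with 1 called by edgeR and 3 by DESeq2. Leaving out OAT-1746 replicate 2 gave 10 higher there, with a median of 0.37 against 1.01 with all libraries. The 11 T cell markers, led by Cd4, a gene that macrophages can also express, summed to 12.4 and 10.6 CPM in CTR, 11.9 and 14.9 CPM in OAT-1746, 31.1 and 14.99 CPM in anti-PD-1, and 15.4, 14.4 and 17.7 CPM in COMB. Cd3d, Cd3e and Cd3g were at 0 in CTR replicate 2, and Cd3e, Trac, Cd8b1 and Foxp3 in OAT-1746 replicate 1. Of 7 tested T cell markers, 6 were higher in anti-PD-1 than in CTR (median 1.94), 2 at an unadjusted p under 0.05, and in COMB against anti-PD-1 5 were lower, 0 at that threshold. edgeR and DESeq2 called 0 in both. In the interaction, 12 of 13 NK cell markers were negative with all libraries (median -1.22) and 13 without OAT-1746 replicate 2 (median -1.78). All 10 microglia markers were negative in both fits (medians -0.87 and -0.65). Of the 9 tested monocyte and macrophage markers, 7 were positive in both (medians 0.72 and 0.17). The part of the microglia, monocyte and macrophage, NK cell and T cell markers in the member differences was not tested.

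**Figure D5:**
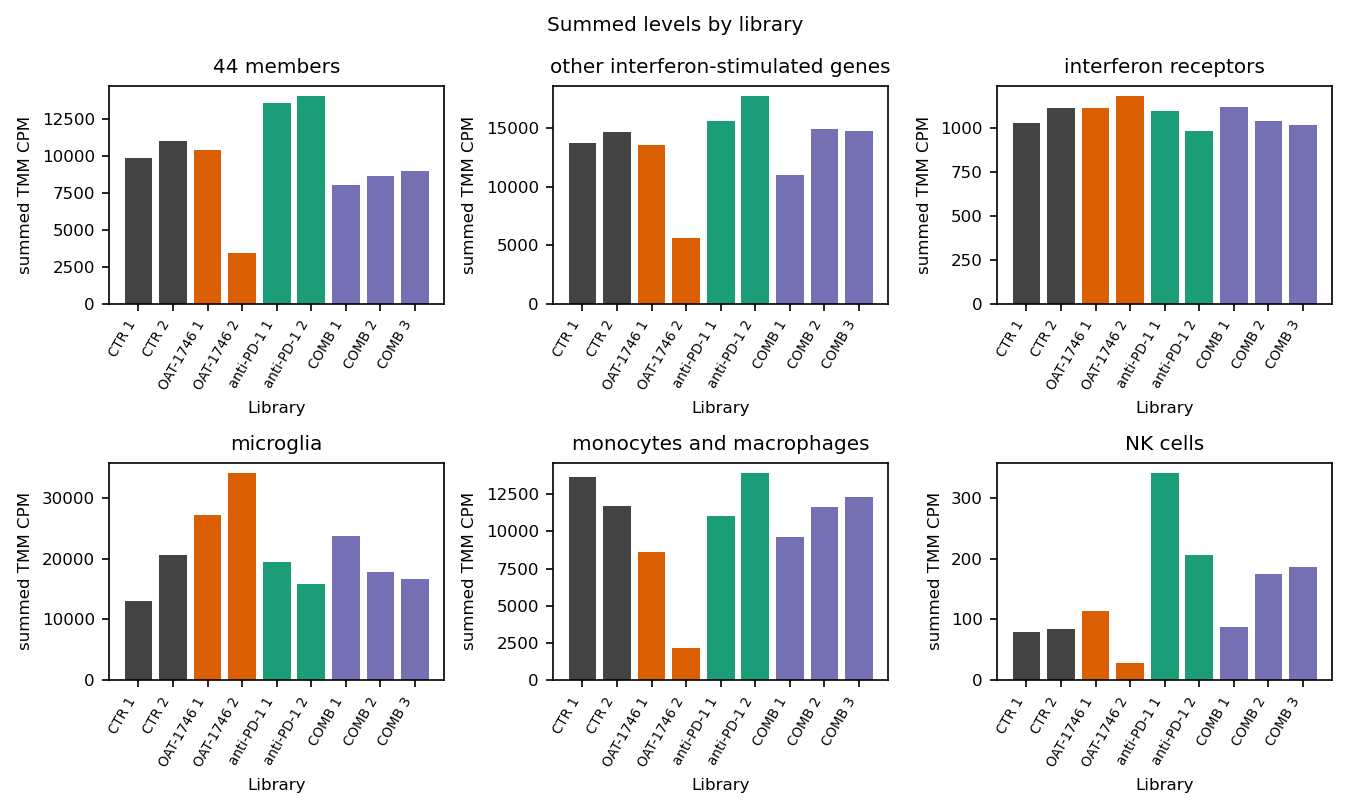
Summed TMM-normalized CPM in each of the 9 libraries for the 44 members, further pathway genes and cell type markers. OAT-1746 replicate 2 has the lowest sum of the members (3406 CPM) and of the monocyte and macrophage markers (2185 CPM), and the highest sum of the microglia markers (34169 CPM).

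The 8 markers of border-associated macrophages, led by F13a1, summed to 773 and 887 CPM in CTR, 647 and 618 CPM in OAT-1746, 724 and 725 CPM in anti-PD-1, and 695, 795 and 822 CPM in COMB. By gene, 5 were higher and 3 lower in OAT-1746 against CTR (median 0.28), with 2 in each direction at an unadjusted p under 0.05. edgeR called 0 of them, and DESeq2 1 higher and 2 lower. Of all tested genes, 16.1% were higher and 16.2% lower at that threshold there, and DESeq2 called 16%. Leaving out OAT-1746 replicate 2 gave the border-associated macrophage markers a median of 0.19, with 5 higher and 3 lower. The 10 neutrophil markers, led by Csf3r, gave 323 and 499 CPM in CTR, 532 and 722 CPM in OAT-1746, 383 and 376 CPM in anti-PD-1, and 456, 460.3 and 459.6 CPM in COMB. Neutrophil markers had their lowest sum in CTR replicate 1 and their highest in OAT-1746 replicate 2. Csf3r made up most of each sum. In OAT-1746 against CTR 8 of the 10 were higher and 2 lower (median 0.75), 4 of them higher at an unadjusted p under 0.05 (16.1% of all tested genes). Leaving out OAT-1746 replicate 2 gave 7 higher and 3 lower there (median 0.24). In COMB against anti-PD-1, 6 were higher and 4 lower (median 0.83), and edgeR and DESeq2 called 0. Of these, 5 and 1 had an unadjusted p under 0.05, against 1.98% and 5.23% of all tested genes. The 9 markers of conventional dendritic cells, led by Fscn1, which brain cells also express, summed to 359 and 577 CPM in CTR, 827 and 871 CPM in OAT-1746, 629 and 554 CPM in anti-PD-1, and 624, 454 and 477 CPM in COMB. Fscn1 made up most of this sum, and in OAT-1746 against CTR 6 of the 9 were lower and 3 higher (median -0.24). Of these, 3 were lower and 1 higher at an unadjusted p under 0.05, against 16.2% and 16.1% of all tested genes. edgeR called 0 of the 9, and DESeq2 1 in each direction, against 16% of all tested genes. These values rested on OAT-1746 replicate 2: without it the median was -0.04, with 4 higher and 5 lower. The 8 of plasmacytoid dendritic cells, the main producers of type I interferon in blood, were led by Tcf4, a gene of broad expression, and summed to 144 and 159.7 CPM in CTR, 188 and 179.6 CPM in OAT-1746, 186 and 175 CPM in anti-PD-1, and 161, 140.4 and 146 CPM in COMB. By gene, 7 of these 8 were higher in anti-PD-1 against CTR (median 0.45) and 7 lower in COMB against anti-PD-1 (median -0.56), as for most members. At an unadjusted p under 0.05 there were 0 in either comparison, and edgeR and DESeq2 called 0. Klk1 (2 libraries), Ccr9 (1) and Cd300c (1) were at 0 in some libraries. The 7 B cell markers, led by Ighm, gave 162 and 268 CPM in CTR, 309 and 349.8 CPM in OAT-1746, 252 and 188 CPM in anti-PD-1, and 231, 202 and 214 CPM in COMB. Ighm made up most of each sum, and in OAT-1746 against CTR 2 of the 3 tested genes were lower (median -0.44). There 1 was higher at an unadjusted p under 0.05 (16.1% of all tested genes), and edgeR and DESeq2 called 0. The direction rested on OAT-1746 replicate 2: without it 3 of 4 tested B cell genes were higher and 1 lower (median 0.49). Among the B cell genes at 0 in some libraries were Pax5 (4 libraries) and, in OAT-1746 replicate 2, Cd79a and Ms4a1. The 13 markers of neurons, oligodendrocytes, astrocytes and glioma cells, led by Mbp, summed to 179 and 199.7 CPM in CTR, 210.0 and 269 CPM in OAT-1746, 211 and 214 CPM in anti-PD-1, and 329.7, 173 and 215 CPM in COMB. Finally, the 8 of endothelial and erythroid cells, led by Flt1, gave 112 and 88.7 CPM in CTR, 113 and 152 CPM in OAT-1746, 150.3 and 111 CPM in anti-PD-1, and 139, 119 and 139 CPM in COMB, with Alas2 at 0 in 2 libraries and Hbb-bt in 1. In COMB against OAT-1746, where edgeR called 15.8% of all tested genes, it called 1 marker of border-associated macrophages higher. It called 1 marker each of neutrophils, conventional and plasmacytoid dendritic cells lower there. Of the neural and glioma markers it called 2 higher and 3 lower. The sort for CD11b should remove most of the cells of the T cell, B cell, neural and endothelial lists.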

How the data were processed

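The authors deposited raw counts, the number of read pairs assigned to each gene by HTSeq (mapping quality of at least 10), for 9 poly-A, reverse-stranded libraries. Before that they used Trimmomatic, STAR on mm10 and Picard, which marked duplicates. GENCODE M21 (GRCm38) held 53706 of the 53801 genes, of which 21967 were protein-coding. edgeR 4.0.16 (R 4.3.3) kept 12543 of these by filterByExpr (minimum count 10, 4 groups), scaled the libraries by TMM and fitted 1 mean per group by quasi-likelihood. The common biological coefficient of variation was 0.214, with 5 residual and 4.15 prior degrees of freedom. Tests were two-sided, in 6 comparisons, and adjusted over all tested genes. A standard error is the absolute log2 fold change over the square root of the F statistic. Library positions used log2 CPM with a prior count of 2. Totals between 13048075 and 18796479 counts set the depth.

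The members and all lists were chosen with earlier results of these data known, so no list was tested. By rule, library values are given for the 2 members with the highest mean CPM in each of 8 role classes, the 3 largest rises and falls per comparison, and members called by edgeR or DESeq2. Of pathway lists (type I interferons, interferon gamma and lambda, receptors, JAK-STAT signalling, interferon regulatory factors, sensing, other interferon-stimulated genes) the called and most abundant genes are named. Some list genes are not reported here by name. Marker lists covered microglia, monocytes and macrophages, border-associated macrophages, neutrophils, conventional and plasmacytoid dendritic cells, NK cells, T cells, B cells, neural and glioma cells, and endothelial and erythroid cells. Alternatives were the DESeq2 1.42.0 Wald test, DESeq2 size factors, library size only, no low-count filter, all genes, only the groups compared, the replicate number as a block, and leaving out each library. A fit with no OAT-1746 libraries, and refits of the pathway calls and of all lists without OAT-1746 replicate 2, were added after seeing the data. Promoters came from RefSeq (GRCm38.p6). The steps were tested on simulated data. Python 3.11.15 with matplotlib 3.10.9 drew the figures.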

Additional observations from a re-analysis of the deposited data

How the results depend on the processing

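Of the counts of called members and the medians per comparison, 184 alternative values stayed close to the reported ones and 12 moved. The reported counts were all 0, and a count was close only at 0. A median was close within 0.614, the SD of the per-library medians pooled within groups, which is larger than most reported medians. The COMB against OAT-1746 median, 0.25 with all libraries and -0.34 without OAT-1746 replicate 2, was thus taken as close although its sign turned. DESeq2 called 1 member in COMB against anti-PD-1, and the fit with no OAT-1746 libraries, chosen after seeing the data, called 10, against 0.325% of the genes tested. Leaving out 1 library at a time gave counts of called members from 0 to 38 in OAT-1746 against CTR, 0 to 11 in COMB against anti-PD-1, 0 to 33 in COMB against OAT-1746 and 0 to 23 in the interaction. Medians then ran from -1.94 to 0.014 in OAT-1746 against CTR, -0.34 to 1.66 in COMB against OAT-1746 and -0.76 to 1.16 in the interaction. The extremes came from leaving out an OAT-1746 library. The cause was not tested. With the replicate number as a replicate block, 0 members were called by edgeR, the medians in the 6 comparisons were -0.79, 0.45, -0.33, -0.80, 0.36 and -0.05, and the calls over all genes in COMB against OAT-1746 dropped from 1979 to 2. Nothing in the labels pairs the replicates, and the deviations of replicate 1 from its group correlated across genes at r = -0.32 to 0.08 between groups.

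Of single genes, 480 values kept their direction and side of the threshold, 14 passed it and 27 turned sign. In OAT-1746 against CTR, Isg20 was -0.41 with the replicate block and -2.59 to 0.94 without single libraries, and Slfn8 -0.19 to 0.26. In anti-PD-1 against CTR, library size alone gave 0.0032 for Lgals3bp and 0.032 for Parp9, and single libraries -0.17 to 0.10 and -0.12 to 0.10. In COMB against CTR, the block gave -0.027 for Samhd1 and -0.053 for Xaf1, and single libraries -0.047 to 0.22, -0.23 to 0.30 and, for Ifitm3, -0.12 to 0.33. In COMB against OAT-1746, single libraries gave -1.23 to 2.27 for Isg20 and -0.098 to 2.77 for Oas1g. In the interaction they gave -2.31 to 1.19 for Isg20, -1.84 to 0.20 for Ifit3, -0.30 to 2.57 for Oas1g, -0.29 to 2.10 for Oas1a and -0.27 to 1.55 for Samhd1.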
